A study of Mus musculus with 6 samples.

Results

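The 47 genes described here encode the machinery with which the endoplasmic reticulum (ER) takes in, folds, glycosylates and disposes of secreted proteins, together with sensors and transcription factors of the unfolded protein response. They were taken by name from 1 count table, where all 47 are among 46959 gene names, and all 47 passed the filter of at least 10 counts in at least 2 libraries that left 14599 genes to be tested. They fall by role into 7 ER chaperones and co-chaperones, 4 stress-induced ER residents, 4 protein disulfide isomerases, 7 translocon and translocon-associated proteins, 5 signal peptidase subunits, 6 oligosaccharyltransferase subunits, 9 ER degradation genes and 5 sensors and transcription factors.

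A B-cell that turns into an antibody-secreting cell has to thread large amounts of immunoglobulin chains into the ER. Newly made chains enter through the Sec61 channel, lose their signal peptide, receive N-linked glycans, and are folded by chaperones and disulfide isomerases, while chains that fail to fold are sent back to the cytosol for degradation. The unfolded protein response adjusts this machinery through the ER membrane sensors IRE1 (Ern1), PERK (Eif2ak3) and ATF6 (Atf6). Of their downstream factors, ATF6 and XBP1 bind stress elements in the promoters of chaperone genes, and ATF4 and CHOP (Ddit3) act downstream of PERK. Lipopolysaccharide (LPS), a bacterial cell wall component, makes mouse splenic B-cells divide and start antibody secretion.

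RNA was sequenced from CD43- splenic B-cells of wt mice, of mice deficient for the intronic enhancer Eμ of the IgH locus (EμMAR-deficient in the study's methods) and of mice deficient for the 3′ regulatory region (3′RR), the cluster of enhancers at the other end of that locus. The mice were 8 to 12 weeks old, of both sexes and, by the study's methods, of 129 background. Each genotype gave 1 library of resting (non stimulated) B-cells and 1 of B-cells cultured for 2 days with 5 μg per ml LPS (1 protocol text in the labels has mg), and each library pools 2 mice according to the labels. The study's methods instead describe 2 pools from 4 mice per genotype and a legend 3 mice, so that the sources do not settle whether a column holds 1 pool or several. The labels say that resting cells spent 2 days in medium alone, whereas the methods take them before stimulation, so that time in culture may or may not differ between the states. Both deletions are carried by the mice themselves, and the cells were isolated by depletion, not sorted.

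Each group therefore has 1 library, and no spread between mice can be given. Levels are CPM (gene counts scaled to a common library size, with TMM factors), always listed in the order wt, Eμ-deficient and 3′RR-deficient. The LPS effect is the log2 fold change of edgeR's quasi-likelihood model with genotype and state as terms, with its standard error and Benjamini-Hochberg adjusted p over 14599 genes, and a gene is called at an adjusted p under 0.05. The error of that model is how unevenly the 3 genotypes moved, not the variation between mice, and nothing says that the resting and LPS cells of a genotype came from different animals. Ratios of 2 libraries carry an exact (Clopper-Pearson) 95% interval that covers counting error only.

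Gene counts ran from 9111889 in the LPS library of 3′RR-deficient B-cells to 21997928 in the LPS library of wt B-cells. B-cell markers were present in all 6 libraries, at a summed level of 4485 to 5845 CPM at rest and 2427 to 3033 CPM after LPS for 7 of 7 listed genes. Resting libraries held more RNA of other cells. Erythroid markers summed to 3374, 20316 and 3895 CPM at rest and to 52.9, 672 and 134 CPM after LPS (6 genes, with Slc4a1 at 0 in the wt LPS library), and myeloid markers to 155, 375 and 156 CPM at rest and 21.5, 36.5 and 29.0 CPM after LPS (8 genes, S100a9 at 0 in the wt and Cd14 at 0 in the 3′RR-deficient LPS library). T-cell markers summed to 26.7, 45.6 and 32.4 CPM at rest and 4.97, 16.7 and 12.9 CPM after LPS (8 genes, with Cd3e, Cd8a and Thy1 at 0 in the wt and Cd8a at 0 in the 3′RR-deficient LPS library). Plasma cell markers summed to 598, 2326 and 663 CPM at rest and 820, 1992 and 1191 CPM after LPS (7 genes). Of these sums Igj (the joining chain) gave 113, 1734 and 170.5 CPM at rest and 96.2, 803 and 200.1 CPM after LPS. Irf4 gave 372, 366 and 364 CPM at rest and 268, 365.5 and 385 CPM after LPS. The model called 3 of the 7 higher after LPS and 0 lower, beside 19.7% and 21.1% of all tested genes. The log2 ratios of 35 spike-in RNAs, LPS over resting library, had an SD of 0.784, 0.135 and 0.633, so that these ratios were least even in wt B-cells. The part of other cells and of this unevenness in the values below was not tested, and in bulk RNA fewer cells of a type and less RNA per cell cannot be told apart.

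From resting to LPS-stimulated B-cells the ER genes rose as a group in each genotype. Together the 47 genes took 3682, 4406 and 3898 CPM at rest and 7985, 9665 and 7998 CPM after LPS. The model called 33 of the 47 higher and 4 lower, where 19.7% of all tested genes were called higher and 21.1% lower, and 10 were not called. Their median log2 fold change was 1.25 beside −0.07 for all tested genes. In 37 of the 47 the LPS library exceeded the resting library in all 3 genotypes (31.9% of all tested genes), and in 6 it was lower in all 3 (35.7% of all tested genes). In Derl1, Edem2, Sec61g and Syvn1 the sign differed between genotypes, though the ratios of Edem2 in wt and of Sec61g in 3′RR-deficient B-cells had intervals that include 0. Every LPS library stood above every resting library for 33 of 47 members (25.0% of all tested genes) and below for 6 of 47 (27.3% of all tested genes). The median log2 ratio over the 47 genes was 1.28 in wt, 1.38 in Eμ-deficient and 1.14 in 3′RR-deficient B-cells (SD over the 3 genotypes 0.12), while the medians over all tested genes were −0.081, −0.001 and −0.085.

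**Figure D1:**
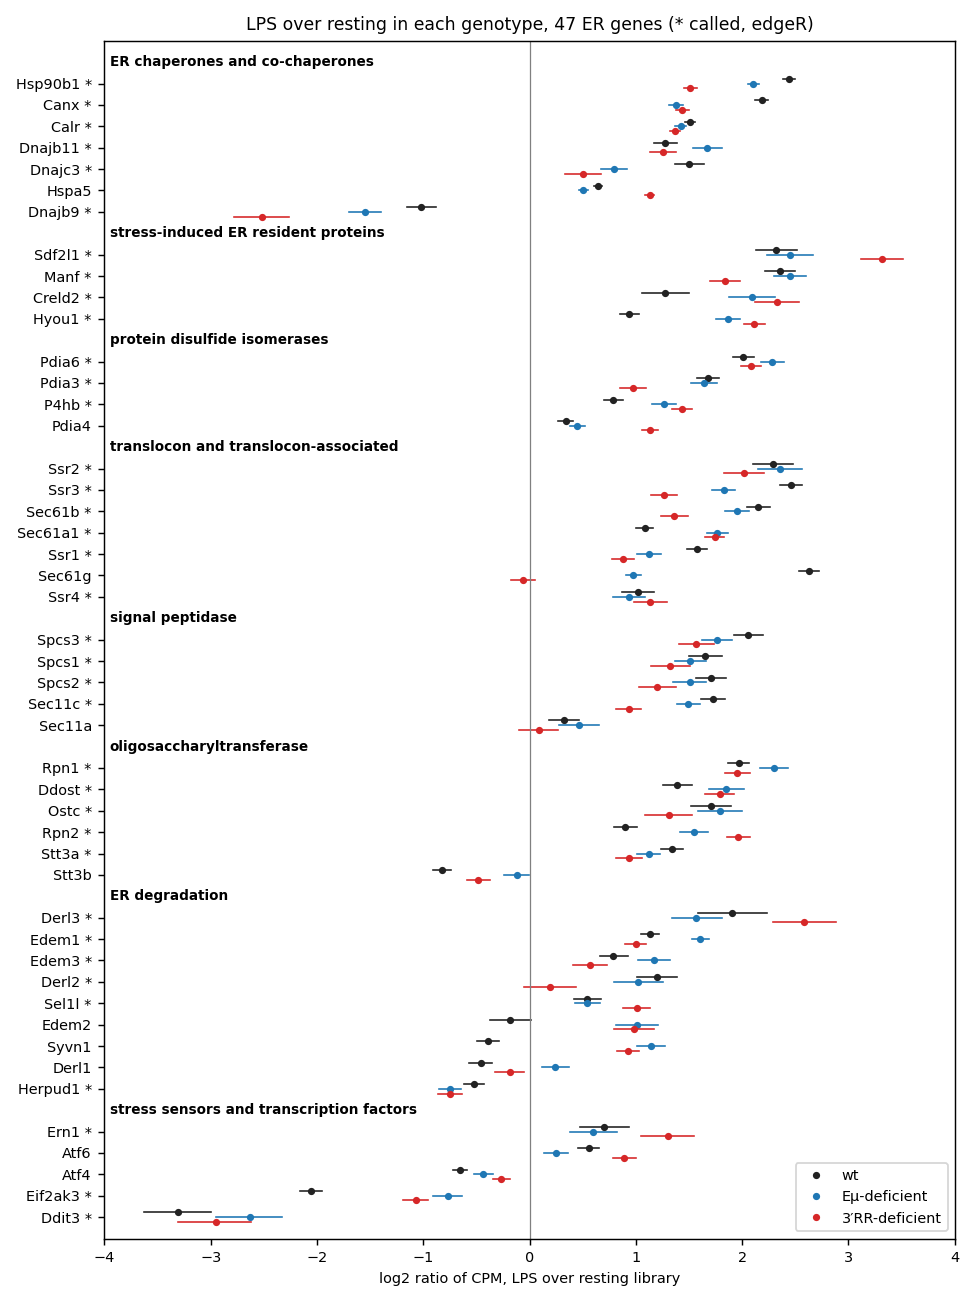
Log2 ratio of CPM, LPS over resting library, for each of the 47 genes (rows, grouped by role) in wt (black), Eμ-deficient (blue) and 3′RR-deficient (red) B-cells; bars are 95% intervals of counting error and asterisks mark genes called by edgeR. Most points lie right of 0, with Sdf2l1 reaching 3.32 in 3′RR-deficient B-cells, while Dnajb9, Herpud1, Stt3b, Atf4, Eif2ak3 and Ddit3 lie left of 0 in all 3 genotypes.

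The promoters of several of these genes are known for the ER stress response element (ERSE), which is CCAAT and CCACG with 9 bases between them and is read by NF-Y together with ATF6 or XBP1. RefSeq windows of GRCm38.p6 from 250 bases before to 50 after the start were found for 38 of the 47 genes, and were missing for Atf6, Derl1, Hyou1, Manf, Ostc, Sec11c, Sec61a1, Spcs3 and Ssr2. An exact ERSE on either strand was in 9 of the 38 windows (23.7%), against 37 of 27025 genes with a window (0.137%) and 16 of the 9441 tested genes with a window (0.169%). Hspa5 encodes BiP, the main chaperone of the ER lumen, and the 250 bases before its start are shown because its ERSE is the best known of these elements. The start is that of RefSeq, and the longest GENCODE model of the gene begins upstream of it, at base 34771970. Capitals mark CCAAT and CCACG of the exact match.
Hspa5, chr2:34771840-34772089, plus strand: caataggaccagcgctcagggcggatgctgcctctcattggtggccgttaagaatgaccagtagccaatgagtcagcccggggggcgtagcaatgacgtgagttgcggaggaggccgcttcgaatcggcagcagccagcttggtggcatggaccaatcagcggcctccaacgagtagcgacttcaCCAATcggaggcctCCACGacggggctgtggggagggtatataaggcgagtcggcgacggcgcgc
The exact matches in the other genes are shown with 15 bases on either side, in the direction of the gene and with the same letters in capitals, for comparison of their order and spacing. On the opposite strand they read CGTGG and then ATTGG.
Calr, chr8:84847060-84847108, minus strand: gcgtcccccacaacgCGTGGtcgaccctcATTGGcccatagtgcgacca
Derl3, chr10:75893227-75893275, plus strand: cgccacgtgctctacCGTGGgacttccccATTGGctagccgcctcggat
Hsp90b1, chr10:86705623-86705671, minus strand: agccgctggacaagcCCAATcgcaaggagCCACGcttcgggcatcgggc
Hsp90b1, chr10:86705518-86705566, minus strand: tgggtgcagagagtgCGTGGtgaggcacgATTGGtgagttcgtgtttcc
Canx, chr11:50325785-50325833, minus strand: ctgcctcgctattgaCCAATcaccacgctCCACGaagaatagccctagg
Pdia6, chr12:17266476-17266524, plus strand: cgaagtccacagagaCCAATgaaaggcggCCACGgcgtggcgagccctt
Dnajc3, chr14:118937812-118937860, plus strand: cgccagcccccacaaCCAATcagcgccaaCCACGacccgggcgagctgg
Creld2, chr15:88819505-88819553, plus strand: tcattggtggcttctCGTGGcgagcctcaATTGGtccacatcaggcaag
Syvn1, chr19:6046517-6046565, plus strand: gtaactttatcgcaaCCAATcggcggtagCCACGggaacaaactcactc

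All 10 exact ERSEs lay before the start, from base −212 for the farther of the 2 in Hsp90b1 to base −26 for the end of that in Syvn1. A related element, ERSE-II (ATTGG, 1 base, CCACG), was in 2 of 38 windows (5.26%) against 0.0444% of all genes and 0.0847% of tested genes with a window. It lay at bases −52 to −42 in Herpud1, one of the genes that fell, and after the start, at bases 7 to 17, in Dnajb11. The window of Herpud1 is shown because its element differs from the ERSE in the strand of CCAAT (read as ATTGG) and in spacing (1 base, not 9).
Herpud1, chr8:94386362-94386402, plus strand: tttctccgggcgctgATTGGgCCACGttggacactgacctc
The CCACG site alone, which is part of both elements, was in 31 of 38 windows (81.6%), against 35.5% of all genes and 51.5% of tested genes. The core of the unfolded protein response element (TGACG followed by TGG) and the amino acid response element (TGATG, 1 base, AAT), searched on both strands, were in no window of the 38, against 0.714% and 1.08% of all genes and 1.05% and 0.54% of tested genes. A match is a run of letters and no measured binding. Of the 9 genes with an ERSE 7 were called higher after LPS and none lower, with a median log2 fold change of 1.67, and Hspa5 and Syvn1 were not called. Of the 27 genes with a window and neither element 18 were called higher and 3 lower (median 1.13), and of the 9 genes without a window 7 were called higher and none lower (median 1.60). The difference between these sets was not tested.

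**Figure D2:**
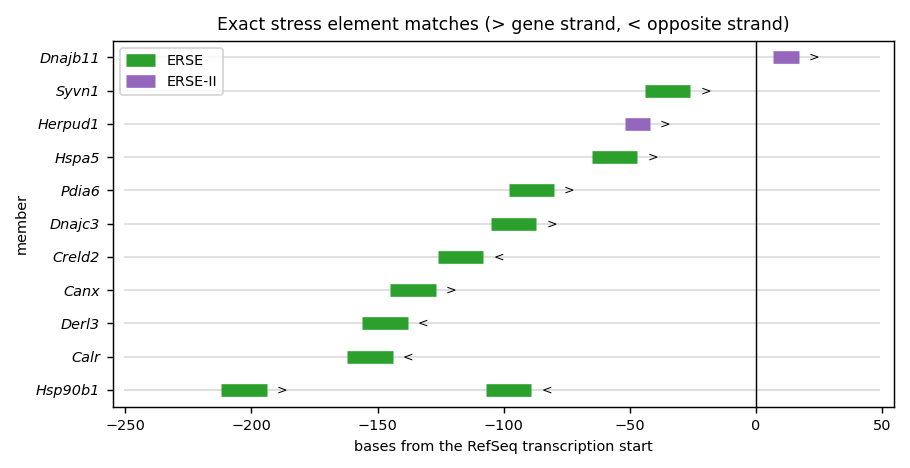
Position of exact ERSE (green) and ERSE-II (purple) matches in bases from the RefSeq transcription start for the 11 genes that hold one; grey lines show the window searched, and > and < give the strand of the match. ERSEs lie between −212 and −26, Hsp90b1 holds 2, and the ERSE-II of Dnajb11 lies after the start at 7 to 17.

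Among the chaperones, 5 of 7 were called higher and 1 lower (median log2 fold change 1.40). For this and the following roles, the shares over all tested genes were 19.7% called higher and 21.1% lower. Every LPS library was above every resting library for 25.0% of all tested genes and below for 27.3%. Hsp90b1 (GRP94, the ER member of the Hsp90 family, chr10:86690209-86705509 in GRCm38, with 2 ERSEs) stood at 163, 264 and 200.5 CPM at rest and 880.2, 1134 and 572 CPM after LPS. All 3 LPS libraries were above the highest resting library, with a log2 fold change of 2.02 ± 0.30 (adjusted p = 0.000954). Exons of Gm15344 and Gm25745 overlap it on the same strand, so that its counts may be shared. Calnexin (Canx), the membrane-bound lectin that holds glycoproteins during folding, had 150.3, 194 and 180.2 CPM at rest and 682, 503 and 488 CPM after LPS, a change of 1.67 ± 0.28 (adjusted p = 0.00204). Its soluble counterpart calreticulin (Calr) had 292, 327 and 375 CPM at rest and 832, 876 and 969 CPM after LPS, a change of 1.43 ± 0.26 (adjusted p = 0.00277), and a gene copy named Calr-ps is also in the table. For both lectins the resting and LPS libraries did not overlap.

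Dnajb9 (ERdj4, a co-chaperone of BiP that represses IRE1) went the other way, with 69.01, 128 and 86.2 CPM at rest and 34.05, 43.8 and 15.04 CPM after LPS. All its LPS libraries were below its lowest resting library, a change of −1.68 ± 0.31 (adjusted p = 0.00285). The co-chaperones Dnajb11 (ERdj3) and Dnajc3 (p58IPK) rose by 1.40 ± 0.23 (adjusted p = 0.0018) and 0.93 ± 0.26 (adjusted p = 0.0191). The states of Dnajb11 did not overlap. Those of Dnajc3 did, with 68.5 CPM in the resting Eμ-deficient and 50.4 CPM in the 3′RR-deficient LPS library. Hspa5 itself, described here although the model did not call it, stood at 448, 564 and 464 CPM at rest and 699, 801 and 1016 CPM after LPS. Its LPS libraries were all above its resting libraries, but the rises were uneven. The log2 ratio was 0.64 (95% interval 0.60 to 0.68) in wt, 0.51 (0.46 to 0.55) in Eμ-deficient and 1.13 (1.09 to 1.17) in 3′RR-deficient cells. The model's change was 0.76 ± 0.28 (adjusted p = 0.0525). Without the wt libraries the change of Hspa5 was 0.84 (adjusted p = 0.0133), and it was called under 4 of the 13 settings tried, with an adjusted p from 0.0122 (DESeq2) to 0.321.

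The 4 stress-induced residents were all called higher, with a median log2 fold change of 2.06. Sdf2l1, a partner of the BiP cycle, had the largest rise of the 47 genes in the model (2.69 ± 0.28, adjusted p = 0.000187). It had 14.3, 16.8 and 12.7 CPM at rest and 71.5, 91.6 and 127 CPM after LPS. Over the 13 settings its change ran from 1.997 to 2.909 and that of Manf from 2.043 to 2.387. The rank of Sdf2l1 thus depended on the setting. Manf, a secreted factor held in the ER, had 25.8, 32.6 and 31.8 CPM at rest and 132, 178 and 114 CPM after LPS (2.21 ± 0.25, adjusted p = 0.000269). Exons of Rbm15b overlap Manf on the same strand. The disulfide isomerase Creld2 stood at 13.04, 17.3 and 14.2 CPM at rest and 31.6, 73.7 and 71.1 CPM after LPS (1.90 ± 0.27, adjusted p = 0.000821). Hyou1 (GRP170, the exchange factor of BiP) had 83.6, 65.5 and 65.5 CPM at rest and 160.4, 238 and 283 CPM after LPS (1.64 ± 0.30, adjusted p = 0.00262). In each of the 4 the lowest LPS library was above the highest resting library.

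The protein disulfide isomerases, which make and reshuffle the disulfide bonds of immunoglobulin chains, were called higher in 3 of 4. Pdia6 had 59.3, 66.4 and 64.5 CPM at rest and 239, 324 and 273 CPM after LPS (2.13 ± 0.25, adjusted p = 0.000319). Pdia3, the isomerase that works with calnexin and calreticulin, had 55.6, 59.7 and 61.1 CPM at rest and 178, 186 and 119.9 CPM after LPS (1.43 ± 0.26, adjusted p = 0.00246), and P4hb, the classical isomerase, 85.8, 75.1 and 80.99 CPM at rest and 148, 180.3 and 219 CPM after LPS (1.16 ± 0.25, adjusted p = 0.00609). None of these 3 overlapped between the states. Pdia4 was not called (0.64 ± 0.27, adjusted p = 0.086), and its resting level in Eμ-deficient B-cells, 256 CPM, was above its LPS level in wt B-cells, 196 CPM. Without the wt libraries its change was 0.81 (adjusted p = 0.0109), and its adjusted p over the 13 settings ran from 0.0109 to 0.478.

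Of the translocon genes 6 of 7 were called higher and none lower (median 1.53). Ssr2, a subunit of the translocon-associated complex, had 14.97, 17.7 and 17.8 CPM at rest and 72.98, 90.5 and 72.1 CPM after LPS (2.22 ± 0.23, adjusted p = 0.000184). Its partner subunit Ssr3 had 47.2, 74.7 and 52.7 CPM at rest and 259, 265 and 126 CPM after LPS (1.85 ± 0.29, adjusted p = 0.00138). The channel subunits Sec61b and Sec61a1 had 43.5, 62.2 and 49.8 CPM at rest and 193, 241 and 128 CPM after LPS for the first (1.82 ± 0.26, adjusted p = 0.000846) and 96.03, 82.2 and 83.7 CPM at rest and 203, 279.6 and 280.0 CPM after LPS for the second (1.53 ± 0.26, adjusted p = 0.00208). None of these 4 genes overlapped between the states. The rises of Ssr3 and Sec61b were smallest in 3′RR-deficient B-cells, and those of Sec61a1 smallest in wt B-cells.

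The remaining channel subunit, Sec61g, split by genotype and is described here because its values stood out. It had 56.6, 197 and 109.9 CPM at rest and 349, 387 and 105 CPM after LPS. The log2 ratio of its LPS to its resting library was 2.63 in wt (95% interval 2.53 to 2.72), 0.97 in Eμ-deficient (0.90 to 1.05) and −0.06 in 3′RR-deficient B-cells (−0.17 to 0.05). The model did not call it (1.17 ± 0.47, adjusted p = 0.0723). Without the 3′RR-deficient libraries its change was 1.79 (adjusted p = 0.00437) and without the Eμ-deficient libraries 1.38 (adjusted p = 0.0423), and over the 13 settings its adjusted p ran from 0.000814 to 0.158.

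The signal peptidase, which cuts off the signal peptide, rose in 4 of 5 subunits (median 1.47). Spcs3 had 29.99, 44.6 and 26.8 CPM at rest and 125, 152 and 79.6 CPM after LPS (1.80 ± 0.23, adjusted p = 0.000524). Spcs1 had 22.9, 41.3 and 22.98 CPM at rest and 71.97, 118 and 57.5 CPM after LPS (1.50 ± 0.22, adjusted p = 0.000997), and Spcs2, for which a copy named Spcs2-ps is in the table, 27.9, 37.6 and 27.1 CPM at rest and 90.9, 107 and 62.2 CPM after LPS (1.47 ± 0.23, adjusted p = 0.00128). The enzyme has alternative catalytic subunits. Sec11c had 47.4, 73.2 and 63.2 CPM at rest and 157, 206 and 121 CPM after LPS (1.39 ± 0.26, adjusted p = 0.00296). Its alternative Sec11a had 36.8, 33.4 and 39.2 CPM at rest and 46.05, 46.00 and 41.5 CPM after LPS, and with a change of 0.29 ± 0.22 (adjusted p = 0.313) it was called under none of the 13 settings. The states overlapped for none of the 5 subunits, though for Sec11a the LPS libraries stood above the resting ones by a small margin. The difference between the 2 catalytic subunits was not tested.

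The oligosaccharyltransferase, which transfers glycans to nascent chains, was called higher in 5 of 6 subunits (median 1.54). Rpn1 had 54.9, 46.5 and 46.1 CPM at rest and 215, 228 and 178 CPM after LPS (2.07 ± 0.24, adjusted p = 0.000333). Ddost had 33.2, 32.00 and 34.5 CPM at rest and 87.1, 115 and 119 CPM after LPS (1.68 ± 0.23, adjusted p = 0.000707). Ostc, the subunit that links the enzyme with the catalytic subunit STT3A to the translocon, had 16.3, 19.8 and 15.7 CPM at rest and 53.2, 68.2 and 38.9 CPM after LPS (1.60 ± 0.23, adjusted p = 0.000844), and Rpn2 56.5, 52.9 and 52.4 CPM at rest and 105, 155 and 204 CPM after LPS (1.47 ± 0.27, adjusted p = 0.00307). The states did not overlap for these 4 subunits. The catalytic subunits differed in direction. Stt3a, which glycosylates chains as they enter the ER, rose by 1.13 ± 0.23 (adjusted p = 0.0049), whereas Stt3b, which glycosylates sites that were missed, had 163, 105 and 142 CPM at rest and 92.01, 96.4 and 101 CPM after LPS. All LPS libraries of Stt3b were below its lowest resting library, but its change of −0.48 ± 0.25 was not called (adjusted p = 0.15), except with the trend on GC content removed (−0.61, adjusted p = 0.0268; range over 13 settings 0.0268 to 0.401).

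**Figure D3:**
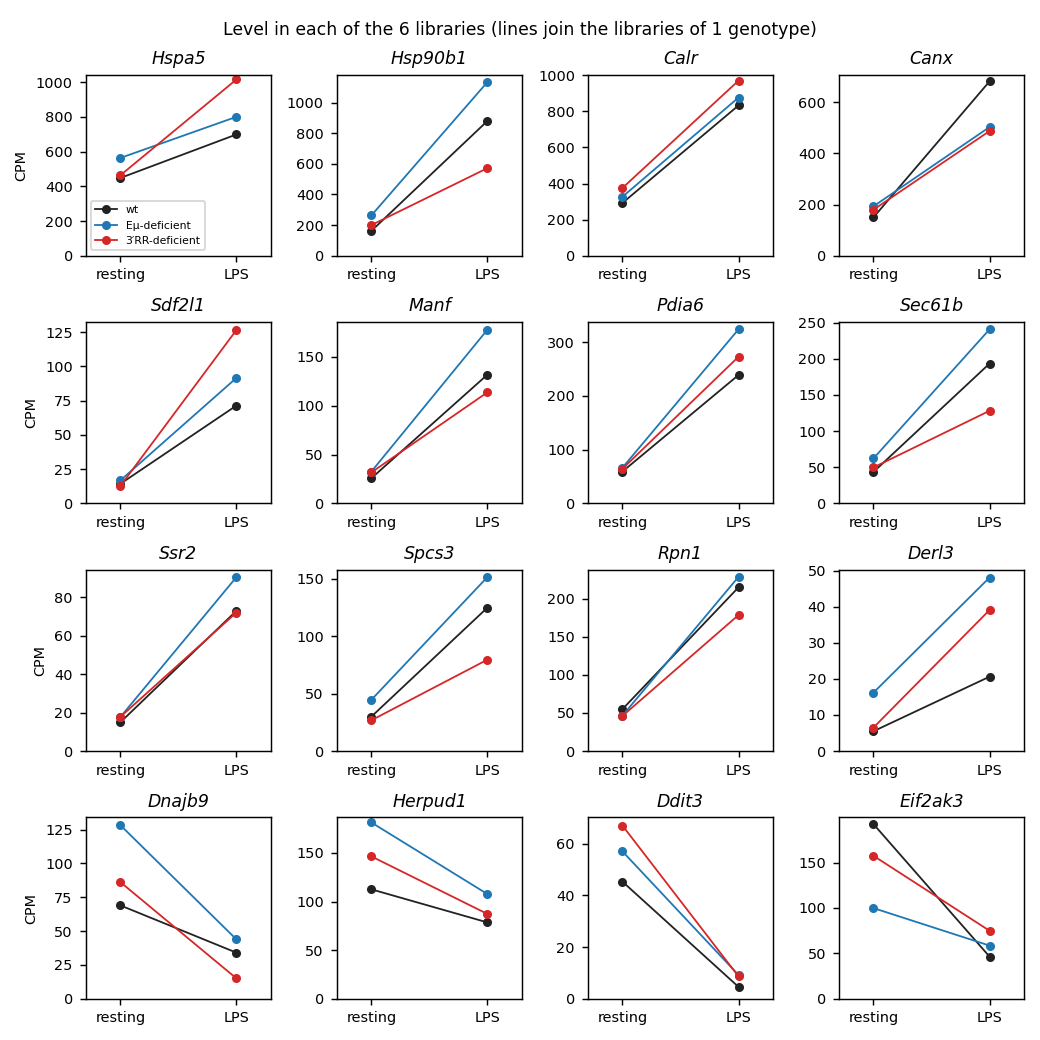
CPM of 16 genes in each of the 6 libraries, with a line joining the resting and the LPS library of wt (black), Eμ-deficient (blue) and 3′RR-deficient (red) B-cells; each panel has its own axis from 0. The first 12 panels rise in each genotype (Sdf2l1 to between 71.5 and 127 CPM) and the last 4, Dnajb9, Herpud1, Ddit3 and Eif2ak3, fall in each.

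Of the ER degradation genes 5 of 9 were called higher, 1 lower and 3 not called (median 0.70), where 19.7% of all tested genes were called higher and 21.1% lower. Derl3, a derlin of the channel through which misfolded proteins leave the ER, had 5.50, 16.2 and 6.51 CPM at rest and 20.6, 48.1 and 39.1 CPM after LPS (2.01 ± 0.27, adjusted p = 0.000639). The mannosidase-like protein Edem1, which marks misfolded glycoproteins, had 94.3, 129.5 and 87.9 CPM at rest and 207, 394 and 176 CPM after LPS (1.25 ± 0.26, adjusted p = 0.00479), and its relative Edem3 39.4, 43.4 and 40.1 CPM at rest and 68.1, 97.7 and 59.3 CPM after LPS (0.84 ± 0.23, adjusted p = 0.0178). Derl2 had 18.2, 18.99 and 20.8 CPM at rest and 41.6, 38.5 and 23.8 CPM after LPS (0.81 ± 0.26, adjusted p = 0.0362). For these 4 genes the LPS libraries were all above the resting ones, though in 3′RR-deficient B-cells the ratio of Derl2 was small. Sel1l, the adaptor of the ubiquitin ligase HRD1, rose by 0.70 ± 0.23 (adjusted p = 0.0371), with overlapping states. Without the Eμ-deficient libraries the calls of Edem1 (adjusted p = 0.0567), Edem3 (0.18), Derl2 (0.163) and Sel1l (0.132) were lost, and without the 3′RR-deficient libraries that of Sel1l (0.238). Over the 13 settings the adjusted p ran from 1.39e-05 to 0.0567 for Edem1, 0.00233 to 0.18 for Edem3, 0.0116 to 0.163 for Derl2 and 0.00574 to 0.238 for Sel1l.

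Herpud1, a stress-induced membrane protein that assembles the HRD1 complex, was the degradation gene that fell, with 113, 181 and 146 CPM at rest and 78.5, 108 and 87.2 CPM after LPS. The states did not overlap, and its change of −0.67 ± 0.23 was called (adjusted p = 0.043). The call was lost without the Eμ-deficient (−0.54, adjusted p = 0.411) and without the 3′RR-deficient libraries (−0.65, adjusted p = 0.176), and its adjusted p ran from 0.00798 to 0.411 over the 13 settings. Leaving out the wt libraries changed the call of 2 further degradation genes. Syvn1, which encodes HRD1, had 87.8, 57.96 and 87.9 CPM at rest and 66.9, 128 and 167 CPM after LPS, and Edem2 had 24.1, 25.6 and 24.1 CPM at rest and 21.3, 51.4 and 47.7 CPM after LPS. Both were higher after LPS in the mutant B-cells. In wt B-cells the log2 ratio was −0.39 for Syvn1 (95% interval −0.50 to −0.29) and −0.18 for Edem2 (−0.37 to 0.01, which includes 0), and with the GC trend removed it was 0.10 for both. Neither was called (0.57 ± 0.32, adjusted p = 0.191, and 0.61 ± 0.29, adjusted p = 0.119). Without the wt libraries Syvn1 changed by 1.06 (adjusted p = 0.000573) and Edem2 by 1.02 (adjusted p = 0.000541), in ranges over the 13 settings of 0.000573 to 0.617 and 0.000541 to 0.424. Derl1 had 84.5, 81.3 and 78.1 CPM at rest and 61.3, 96.2 and 68.7 CPM after LPS and was called under no setting (−0.14 ± 0.24, adjusted p = 0.673). Its sign was positive, 0.05 (adjusted p = 0.855), without the wt libraries.

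Among the sensors and transcription factors 1 of 5 was called higher and 2 lower, and 2 were not called (median −0.45), where 19.7% of all tested genes were called higher and 21.1% lower. Ddit3 (CHOP, the transcription factor of prolonged stress) had the largest fall of the 47 genes, with 45.3, 57.05 and 67.04 CPM at rest and 4.59, 9.18 and 8.64 CPM after LPS. Every LPS library was far below every resting library, a change of −2.96 ± 0.25 (adjusted p = 9.64e-05). The ratio of resting to LPS level was 9.88-fold in wt, 6.21-fold in Eμ-deficient and 7.76-fold in 3′RR-deficient B-cells. Eif2ak3 (PERK, the kinase that slows translation under ER stress) had 192, 99.9 and 158 CPM at rest and 46.4, 58.5 and 74.9 CPM after LPS, again without overlap (−1.30 ± 0.30, adjusted p = 0.00809).

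Atf4, the transcription factor translated when PERK is active, had 252, 196 and 230.3 CPM at rest and 159.6, 145 and 192 CPM after LPS. Its LPS libraries were all below its resting libraries, by a small margin, and its change of −0.45 ± 0.24 was not called (adjusted p = 0.165). It was called under 1 of the 13 settings (range of adjusted p 0.0302 to 0.629). Atf6, cleaved under stress to give a transcription factor, had 74.01, 98.1 and 74.6 CPM at rest and 109, 116 and 138 CPM after LPS (0.56 ± 0.24, adjusted p = 0.0884), and was called without the wt libraries (0.59, adjusted p = 0.0393; range over 13 settings 0.0329 to 0.418). Ern1 (IRE1, the kinase and nuclease that splices Xbp1 mRNA) was the sensor that rose, with 12.9, 23.9 and 12.5 CPM at rest and 20.9, 36.2 and 30.9 CPM after LPS. The change was 0.86 ± 0.24 (adjusted p = 0.02), its states overlapped, and without the 3′RR-deficient libraries it was 0.64 and not called (adjusted p = 0.16; range over 13 settings 0.00269 to 0.16). These counts cover all transcripts of a gene name, so that the spliced form of Xbp1, translation and protein cleavage were not analysed here.

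Levels between genes were compared per kilobase of exonic length (CPM per kb). At rest Atf4, Hspa5 and Calr stood highest in wt B-cells, at 106.7, 106.0 and 101.5 CPM per kb, and the same 3 genes were among the first 4 of the 47 in Eμ-deficient (82.9, 133 and 113 CPM per kb) and the first 3 in 3′RR-deficient B-cells (97.7, 109.7 and 130.2 CPM per kb). After LPS Calr led in all 3 genotypes with 289, 304 and 337 CPM per kb. Hsp90b1 followed with 218, 281 and 142 CPM per kb, and Hspa5 with 165, 189 and 240.3 CPM per kb. Hsp90b1 was second and Hspa5 next in wt and Eμ-deficient B-cells, in the opposite order to 3′RR-deficient B-cells. In Eμ-deficient B-cells Sec61b tied with Hspa5, both at 189.4 CPM per kb. Ern1 and Derl2 were among the 5 lowest genes of every library, with Ern1 between 1.53 and 4.44 CPM per kb and Derl2 between 2.26 and 5.17 CPM per kb. With 1 library a group, neighbours in this order cannot be separated by a spread.

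Other genes of the same pathways, taken from 6 further lists of 122 names of which 118 were tested, were called higher in 54 and lower in 5, with a median log2 fold change of 0.65. Of all tested genes 19.7% were called higher and 21.1% lower. Nupr1, Fkbp14 and Kdelr3 were under the filter, and Srp54c was not analysed here.

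Of the other stress-response regulators 6 of 17 were called higher and 3 lower (median 0.42), beside 19.7% and 21.1% of all tested genes. Atf3, a stress-induced transcription factor, stood at 81.8, 241 and 141 CPM at rest and 5.45, 9.93 and 8.53 CPM after LPS (−4.19 ± 0.28, adjusted p = 6.65e-05). Ppp1r15a (GADD34, which lets translation resume after PERK has acted) stood at 283, 308 and 328 CPM at rest and 12.9, 20.98 and 20.8 CPM after LPS (−4.10 ± 0.28, adjusted p = 6.65e-05). The third fall, of Cebpb, a bZIP factor, was −1.99 ± 0.45 (adjusted p = 0.0078). Rises were largest for Chac1, a glutathione-degrading enzyme under ATF4 control (3.96 ± 0.46, adjusted p = 0.00031), which had 5, 6 and 14 counts at rest, for Asns, asparagine synthetase (2.80 ± 0.46, adjusted p = 0.00163), and for Atf5 (1.93 ± 0.32, adjusted p = 0.00176). Xbp1, named here after its values were seen because its protein reads the elements shown above, had 43.4, 91.3 and 44.7 CPM at rest and 141, 297 and 203 CPM after LPS (1.86 ± 0.25, adjusted p = 0.000617). Xbp1 is also in the list of plasma cell markers.

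The signal recognition particle and other translocation genes were called higher in 8 of 13 and lower in none (median 0.76), led by Srprb (1.22 ± 0.26), Srp19 (1.18 ± 0.25) and Tram2 (1.12 ± 0.23), with adjusted p = 0.00547, 0.00616 and 0.00513. Of the other glycosylation and glycan processing genes 13 of 23 were called higher and 1 lower (median 0.80). Alg6, a glucosyltransferase of the glycan donor, rose by 1.62 ± 0.42 (adjusted p = 0.0137), and Tmem258 and Krtcap2, small subunits of the oligosaccharyltransferase, by 1.59 ± 0.23 (adjusted p = 0.000798) and 1.47 ± 0.26 (adjusted p = 0.00253). The called fall, of Uggt2, rests on 5, 4 and 0 counts after LPS against 25, 79 and 27 at rest.

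Of the other folding and redox genes 10 of 20 were called higher and 1 lower (median 0.80). Fkbp11, a prolyl isomerase, rose by 2.25 ± 0.34 (adjusted p = 0.00107), Mzb1, a co-chaperone of GRP94 in B-cells, by 2.14 ± 0.25 (adjusted p = 0.000316), and Prdx4, the ER peroxiredoxin, by 2.10 ± 0.29 (adjusted p = 0.000747). Mzb1 is a plasma cell marker too, and the fall of Pdia5 rests on 1, 0 and 3 counts after LPS. Other ER degradation genes were called in 4 of 18, all higher (median 0.26), near the 19.7% of all tested genes called higher. The 4 include Vimp (1.25 ± 0.22, adjusted p = 0.00217), Vcp, the ATPase that extracts proteins from the ER (1.21 ± 0.25, adjusted p = 0.00482), and its cofactor Nploc4 (0.91 ± 0.29, adjusted p = 0.0315). ER to Golgi transport genes were called higher in 13 of 27 and lower in none (median 0.72). The coat subunit Sec24d rose by 2.39 ± 0.26 (adjusted p = 0.000239), the cargo receptor Lman1 by 1.91 ± 0.27 (adjusted p = 0.000783) and the retrieval receptor Kdelr2 by 1.82 ± 0.23 (adjusted p = 0.000428).

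**Figure D4:**
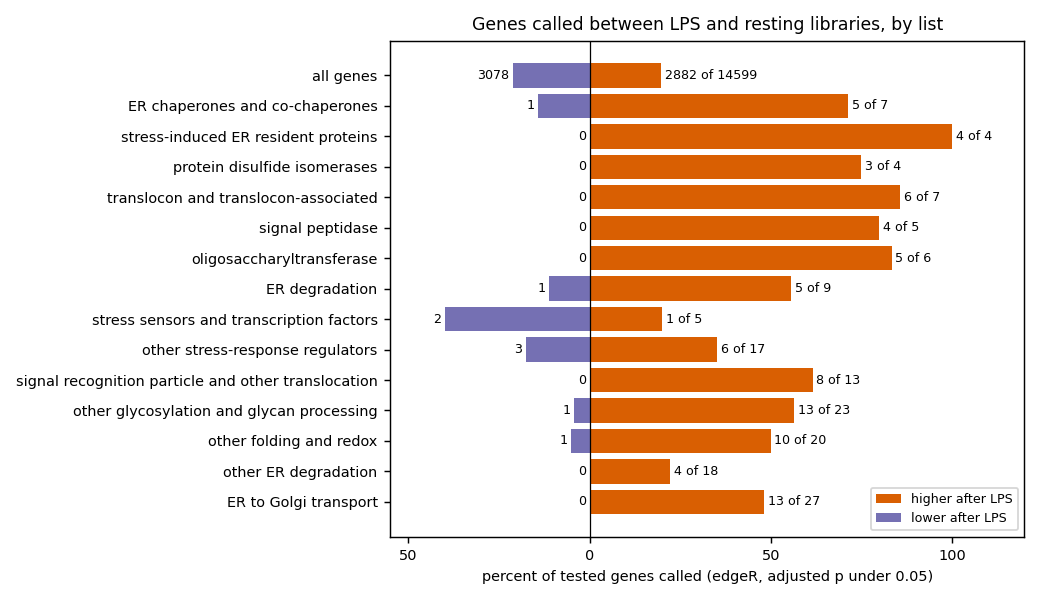
Percent of the tested genes of each list called higher (orange, right) or lower (purple, left) after LPS, with the numbers called; the first bar is all tested genes. The effector lists of the 47 genes lie between 5 of 9 and 4 of 4 called higher, whereas the sensors have 1 higher and 2 lower and the other degradation genes 4 of 18 higher.

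Between genotypes, over both states, the model called none of the 47 genes. For 3′RR-deficient against wt B-cells 0 of 47 members were called higher or lower, where 0.171% of all tested genes were called higher and 0.507% lower. The median log2 fold change was 0.05, and −0.02 with scaling by total counts. At an unadjusted p under 0.05 there was 1 member, Ddit3 (2.1% of members and 5.69% of all tested genes), and the DESeq2 Wald test called 0 members too. For Eμ-deficient against wt B-cells 0 of 47 members were called, where 0.911% of all tested genes were called higher and 0.253% lower. The values leaned to higher levels, with 39 of 47 above 0 (7080 of the 14599 tested genes) and a median of 0.31 beside −0.01 for all tested genes. At an unadjusted p under 0.05 there were 8 members (17.0%, against 8.66% of all tested genes), namely Dnajc3, Creld2, Pdia4, Spcs1, Edem1, Sel1l, Derl3 and Ern1, all higher.

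Derl3 had the largest Eμ-deficient to wt difference, 1.40 ± 0.33 (adjusted p = 0.1). It was at 16.2 CPM in resting Eμ-deficient and 5.50 CPM in resting wt B-cells, with a log2 ratio of 1.56 (95% interval 1.21 to 1.91), and at 48.1 and 20.6 CPM after LPS, a ratio of 1.22 (1.03 to 1.41). It was called by the DESeq2 Wald test (adjusted p = 0.0222), without the filter on low counts (adjusted p = 0.00658) and without the 3′RR-deficient libraries (adjusted p = 0.0328). Over the other settings the adjusted p was between 0.0523 and 0.175. Of the 7 plasma cell markers 1 was called higher in Eμ-deficient B-cells. This was Igj, the joining chain, at 113 CPM in resting wt and 1734 CPM in resting Eμ-deficient B-cells, and at 96.2 and 803 CPM after LPS (log2 fold change 3.55 ± 0.43, adjusted p = 0.00747). From resting to LPS in Eμ-deficient B-cells Igj was lower, as was Tnfrsf17 (2.50 to 0.56 CPM), and Irf4 stayed level (366 and 365.5 CPM). Prdm1 (20.3 to 101), Mzb1 (91.9 to 402), Xbp1 (91.3 to 297), Sdc1 (19.7 to 22.3 CPM) and Derl3 were higher. All 7 markers had Eμ-deficient to wt values above 0, from 0.20 for Irf4 to 3.68 for Tnfrsf17. Tnfrsf17 had 3 and 1 counts in the resting and LPS libraries of wt and 33 and 6 in those of Eμ-deficient B-cells. All 6 erythroid markers were called higher. The part of these cells in the values of Derl3 and of the other ER genes was not tested.

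Within a state each genotype has 1 library, so that the ratios have no test. In resting B-cells the median log2 ratio over the 47 genes was 0.33 for Eμ-deficient to wt (34 of 47 above 0; 0.13 with scaling by total counts and 0.20 with the GC trend removed) and 0.05 for 3′RR-deficient to wt (30 of 47 above 0, but a median of −0.14 with scaling by total counts), beside 0.03 and 0.01 for all tested genes, of which 52.1% and 51.8% were above 0. After LPS it was 0.37 for Eμ-deficient to wt (42 of 47 above 0) and 0.14 for 3′RR-deficient to wt (24 of 47 above 0), beside 0.03 and 0.11 for all tested genes, of which 52.1% and 54.9% were above 0. In resting Eμ-deficient B-cells Sec61g (1.80, 95% interval 1.69 to 1.90) was the most raised and Eif2ak3 (−0.95, −1.04 to −0.85) the most lowered. After LPS these were Edem2 (1.27, 1.09 to 1.46) and Canx (−0.44, −0.48 to −0.39). These comparisons share the wt libraries.

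Resting 3′RR-deficient and wt libraries were the closest pair, with log2 ratios of the 47 genes from −0.35 (Hyou1) to 0.96 (Sec61g). After LPS the same genotypes spread from −1.73 for Sec61g (−1.83 to −1.63) and −1.18 for Dnajb9 to 1.17 for Creld2 and 1.32 for Syvn1 (1.21 to 1.43). All 5 signal peptidase subunits were lower in the 3′RR-deficient LPS library (the interval of Sec11a, −0.33 to 0.03, includes 0) and all 5 sensors and transcription factors higher, with medians of −0.38 and 0.56, where 54.9% of all tested genes were higher. With the trend on GC content removed, Spcs1 (0.30), Spcs3 (0.04) and Sec11a (0.29) turned positive and Atf4 (−0.31) negative.

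GC content moved with this spread. Of the 13 members whose exons hold under 45% GC none had a ratio above 0 between 3′RR-deficient and wt LPS libraries (median −0.62), against 8 of 13 members between 45% and 50% (median 0.16) and 16 of 21 members with 50% or more (median 0.46). Over all genes the median ratio was −0.85 over the 1436 most GC-poor genes and 0.79 over the 1436 most GC-rich, and the log2 ratios of 35 spike-in RNAs between these 2 libraries had an SD of 1.27, against 0.157 between the resting libraries. With the GC trend removed, 6 of 13, 8 of 13 and 12 of 21 members were above 0 (medians −0.05, 0.08 and 0.08), Sec61g was at −1.39 and Syvn1 at 0.69. The GC classes were set after the values were seen.

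**Figure D5:**
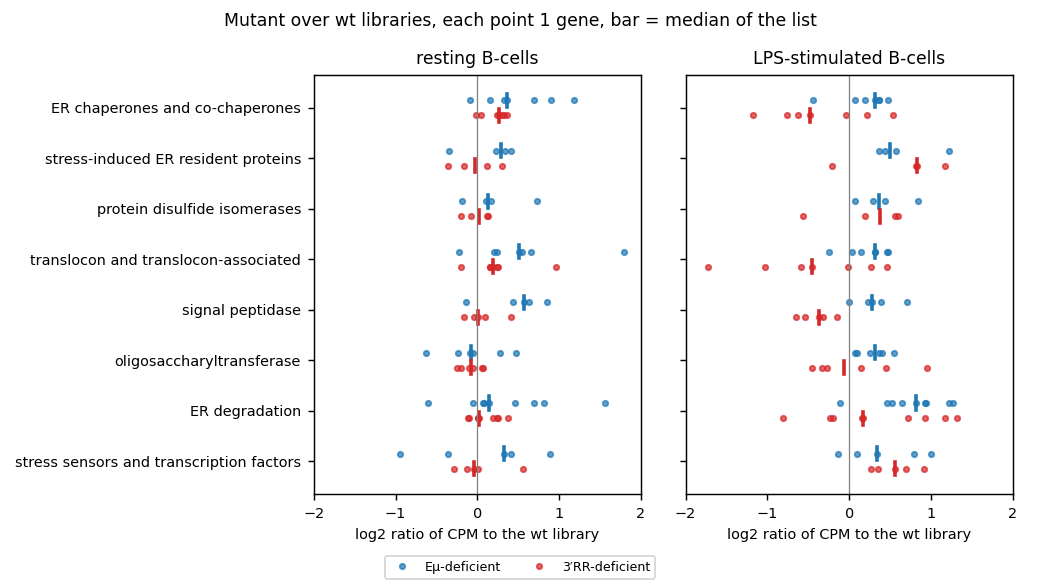
Log2 ratio of CPM of Eμ-deficient (blue) and 3′RR-deficient (red) to wt libraries for each of the 47 genes (points) by role, with the median of each list (bar), in resting (left) and LPS-stimulated (right) B-cells. Resting 3′RR-deficient points lie between −0.35 and 0.96, and after LPS they spread from −1.73 to 1.32.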

How the data were processed

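CD43- splenic B-cells of 3 genotypes, resting or LPS-stimulated, gave 6 libraries. Per the methods and the labels, the authors depleted ribosomal RNA, made stranded libraries of total RNA, mapped paired reads with STAR 2.4.0a to mm10 with Ensembl gene models, and deposited raw counts per gene name from featureCounts (Subread 1.4.6-p1), with multi-mapping reads counted, so that near-identical copies can exchange reads. Counts behaved as sense counts. Over 1076 pairs of a coding gene and an antisense gene the median level was 7.03 against 0.0518 CPM.

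The 96 rows that name no gene (92 of them spike-in RNAs), 4.75% to 7.10% of counts, were left out. Gene counts per library ran from 9111889 to 21997928. Of 47055 names 44203 matched GENCODE M21 (GRCm38) as they stand, and 764 more through an older name. Counts were scaled by TMM and tested with edgeR 4.0.16 (R 4.3.3), quasi-likelihood, genotype plus state, for 14599 genes with at least 10 counts in 2 libraries, with Benjamini-Hochberg adjustment at 0.05. The model was tested on simulated data. Library ratios carry Clopper-Pearson 95% intervals (scipy 1.17.1). Amplified reads are not independent molecules, so intervals cover counting error only. Alternatives were other scalings, DESeq2 1.42.0, other filters, GC and length trends, and leaving out a genotype. The members and lists were chosen with earlier results of these data known. Values in every library are given for up to 4 called members per role by size of change and for each sensor, and 3 rises and 3 falls per further list are named. Hspa5, Sec61g, Sec11a, Stt3b, Herpud1, Syvn1, Edem2 and Derl1 were added after their values were seen. 1 listed erythroid marker is not reported here.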

Additional observations from a re-analysis of the deposited data

Results flagged for a closer look

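The ER degradation genes Syvn1 and Derl1 moved in opposite directions after LPS in different genotypes by more than counting error; with 1 library a group, the difference between genotypes was not tested. For Syvn1 the log2 ratio of LPS to resting level was −0.392 in wt, 1.144 in Eμ-deficient and 0.925 in 3′RR-deficient B-cells. With the GC trend removed the ratios were 0.10, 1.05 and 0.72, so that the wt value changed sign. For Derl1 the ratios were −0.462 in wt, 0.242 in Eμ-deficient and −0.185 in 3′RR-deficient B-cells, and with the GC trend removed −0.47, 0.12 and −0.30. With the length trend removed they were −0.55, 0.04 and −0.33, so that the Eμ-deficient value was smaller than its counting error (95% interval 0.12 to 0.37 around 0.242). The wt LPS to resting ratios of all genes had a median of 0.48 over the 1436 most GC-poor genes and −0.71 over the 1436 most GC-rich. The part of GC content and length was not tested beyond the removal of their trends.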

How the results depend on the processing

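The model pairs the resting and LPS library of each genotype through its genotype term. Over 13 settings, 30 of the 47 genes were called for LPS under each, 15 under some and 2 (Derl1 and Sec11a) under none. The counts of members called stayed between 30 and 38 higher and between 3 and 5 lower. Leaving out 1 genotype gave 30 to 38 higher, 3 to 4 lower and a median of 1.326 to 1.356. With the GC trend removed the LPS median was 1.117, where the median of all genes moved from −0.07 to −0.17; with the length trend removed that of all genes was −0.18 and without the filter 0.16. Total-count scaling gave medians of 1.027 for wt LPS to resting, 0.134 for resting Eμ-deficient to wt and −0.135, a change of sign, for resting 3′RR-deficient to wt. Removing the length trend gave 1.207 for Eμ-deficient LPS to resting, and removing the GC trend 0.201 for resting Eμ-deficient to wt. DESeq2, no filter and the fit to 2 genotypes each called 1 member higher in Eμ-deficient B-cells, Derl3. Derl1 after LPS was between −0.232 and 0.051 when a genotype was left out, 0.051 without wt. The causes of these shifts were not tested. Without that pairing 31 members were called higher and 3 lower, and the calls of Dnajc3, Herpud1, Sel1l and Ern1 were lost and that of Hspa5 gained.

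Over all genes, 25 higher and 74 lower for 3′RR-deficient B-cells became 56 and 122 with DESeq2, 135 and 203 without the filter and 53 and 124 in the fit to 2 genotypes. For Eμ-deficient B-cells 133 and 37 became 277 and 63, 483 and 120, and 322 and 68. Without the Eμ-deficient libraries the LPS calls went from 2882 higher and 3078 lower to 2116 and 1844. With 1 library a group, differences between genotypes within a state have no test. The 3′RR-deficient LPS library was the smallest, with 9111889 counts. Ddit3 had 96, 98 and 77 counts in the wt, Eμ-deficient and 3′RR-deficient LPS libraries.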
